A study of Mus musculus with 6 samples.

Results

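The E2F transcription factors, cyclin E and the retinoblastoma (RB) family form the switch that commits a cell to DNA replication. The genes described were E2f1, E2f2, E2f3, E2f4, E2f7, E2f8, Ccne1, Ccne2, Rb1 and Rbl1, which are 10 of the 34797 gene names on the array, and every non-control probe carrying one of these names was taken, 14 probes in all. As background, E2F1, E2F2 and E2F3 activate genes of the G1/S transition, E2F4 mainly represses with the pocket proteins, and E2F7 and E2F8 repress without them. RB1 and p107, the product of Rbl1, bind E2F factors and hold them inactive until cyclin-dependent kinases, among them the CDK2 partners cyclin E1 and cyclin E2, phosphorylate the pocket proteins. In maturing red cell precursors this machinery is known for closing the cell cycle before the nucleus is lost, and E2F2 is the E2F most tied to that step.

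The arrays compared G1E-ER-GATA-1 cells, a mouse erythroblast line derived from Gata1-null embryonic stem cells that carries GATA-1 fused to the estrogen receptor ligand-binding domain. Both groups were grown with erythropoietin and Kit ligand, were nucleofected at 0 h and 24 h, received β-estradiol from 24 h to switch on the fusion protein, and were harvested at 48 h. The groups differed in the siRNA, which was directed against Foxo3 (3 arrays) or was nontargeting (3 arrays). It is 1 cell line in which a fusion protein stands in for GATA-1, and no array without estradiol was analysed here.

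Levels are scaled log2 signals: the log2 of a probe's background-subtracted intensity minus the 75th percentile of its array, so that 0 is the level of a fairly bright probe. Levels are compared between the groups within 1 probe. Levels of different probes are combined only in the ratios within an array, the summed marker levels and the likeness to E2f2. The Foxo3 probe designed on the RefSeq transcript read −0.46, −1.29 and −1.89 on the Foxo3 siRNA arrays, against 1.23, 1.28 and 1.12 on the nontargeting arrays, a mean of 18.6% of the nontargeting level, although the probe was well above background in 2 of the 3 Foxo3 siRNA samples (limma with Benjamini-Hochberg adjustment, adjusted p = 0.00533). A Foxo3 probe on a cDNA clone gave a log2 fold change of 0.25 (limma adjusted p = 0.258), so the check of the knockdown rests on 1 of 2 probes. Between 20343 and 37532 spots per array were well above background, and the lowest number was on Foxo3 siRNA replicate 3, where 50.2% of the spots carried a surrogate value for a signal that did not exceed background. All 6 arrays lay on 1 slide. The nontargeting arrays and Foxo3 siRNA replicate 1 were in row 1 and Foxo3 siRNA replicates 2 and 3 in row 2, so any value with the row as a block rests on Foxo3 siRNA replicate 1. The 9 erythroid markers on the array were well above background on all 6 arrays, their summed level was 3310 to 4490 on the Foxo3 siRNA arrays, against 4840 to 5350 on the nontargeting arrays (multiples of the 75th percentile signal), and 2 of them, Tfrc and Rhag, were called higher. The summed level of 6 megakaryocyte markers was 93.9 to 120 against 161 to 164, with Itgb3 called lower and Ppbp not well above background on any array, that of 6 macrophage markers was 5.03 to 6.37 against 7.3 to 13.4 with Lyz2 and Mrc1 not well above it on any, and that of 5 B or T cell markers was 3.54 to 4.38 against 4.69 to 6.28 with Cd8a and Ms4a1 not well above it on any. The summed levels of 6 neutrophil, 5 mast cell and 5 fibroblast markers overlapped between the groups, and Mpo, S100a8, Cpa3, Col1a1, Dcn and Pdgfrb were not well above background on any array. The part of these markers in the results was not tested. In such bulk RNA, fewer cells of a kind and less RNA per cell cannot be told apart.

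Promoter sequences were read from RefSeq for the members whose start sites it lists, to show which of them carry the letters that E2F proteins are known to bind. The table held 9 windows of 300 bases, from 250 bases before to 50 bases after a start, for 7 of the 10 genes (build GRCm38.p6); E2f4, Ccne2 and Rb1 had none there. An E2F word (TTTGGCGC, TTTGCCGC, TTTCGCGC or TTTCCCGC, on either strand) was present in 4 of the 9 windows and in 744 of all 32851 windows of this length, which is 2.26%. The 4 windows are printed 5′ to 3′ on the gene's strand because they are the ones that hold a word, and the word is in capitals.
E2f2 (first start, chr4:136172024-136172323, plus strand): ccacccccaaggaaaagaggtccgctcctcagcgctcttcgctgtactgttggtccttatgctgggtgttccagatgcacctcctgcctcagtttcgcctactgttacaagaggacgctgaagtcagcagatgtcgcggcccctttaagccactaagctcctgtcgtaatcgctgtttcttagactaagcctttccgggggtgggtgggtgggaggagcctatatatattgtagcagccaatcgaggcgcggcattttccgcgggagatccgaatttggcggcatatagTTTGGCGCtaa
Rbl1 (chr2:157204485-157204784, minus strand): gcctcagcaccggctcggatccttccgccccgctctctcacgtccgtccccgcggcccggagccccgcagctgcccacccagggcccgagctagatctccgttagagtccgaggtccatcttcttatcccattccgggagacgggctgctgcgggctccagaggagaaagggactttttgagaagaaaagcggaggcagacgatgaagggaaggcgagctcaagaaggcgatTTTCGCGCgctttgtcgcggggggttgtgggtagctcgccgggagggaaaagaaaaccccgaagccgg
E2f7 (chr10:110745189-110745488, plus strand): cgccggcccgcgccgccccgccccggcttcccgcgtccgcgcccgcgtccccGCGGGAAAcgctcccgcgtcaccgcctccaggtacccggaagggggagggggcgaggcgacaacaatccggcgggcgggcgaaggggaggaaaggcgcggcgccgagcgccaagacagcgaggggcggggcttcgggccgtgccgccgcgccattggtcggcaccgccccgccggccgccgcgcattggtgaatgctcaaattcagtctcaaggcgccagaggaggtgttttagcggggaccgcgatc
E2f3 (first start, chr13:29986014-29986313, minus strand): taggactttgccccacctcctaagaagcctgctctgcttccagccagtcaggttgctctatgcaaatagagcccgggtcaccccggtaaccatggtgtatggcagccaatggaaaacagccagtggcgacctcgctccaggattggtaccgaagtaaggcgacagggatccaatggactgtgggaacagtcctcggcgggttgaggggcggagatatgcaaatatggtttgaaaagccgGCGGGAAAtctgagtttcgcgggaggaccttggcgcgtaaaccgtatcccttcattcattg
The E2f2 word lay downstream of the start, at bases 40 to 47, and the Rbl1 word just upstream, at −18 to −11. In E2f3 the word sat at −11 to −4 and in E2f7 at −198 to −191, in both cases on the opposite strand. The cell cycle homology letters (TTTGAA), known from genes that the DREAM complex represses, were present in 3 of the 9 windows (the first of E2f3, the second of E2f2, and that of E2f8) and in 17.9% of all windows. The CCAAT letters were in 5 of the 9 windows and in 37.4% of all. The GTAAACA letters of forkhead factors were in 0 of the 9 windows and in 3.65% of all, and the GATA letters AGATAA and TGATAA in 0 and in 18.6%. A match is a description of letters, not of a bound site. E2f8, E2f1 and Ccne1 had no E2F word in the windows read, which leaves sequence outside those windows unread. The E2f1 window opens with letters that translate into part of the E2F1 protein, so it starts inside the gene. The promoter upstream of that window was not read, so nothing follows for it. The second E2f2 window (chr4:136180532-136180831, plus strand) lay downstream of the first. The first letters of this second window translate into part of the E2F2 protein, so it too starts inside the gene. It still counts among the 3 windows with cell cycle homology letters and the 5 with CCAAT letters. Whether any other window is the main promoter of its gene, or lies inside the gene, was not checked.

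**Figure D1:**
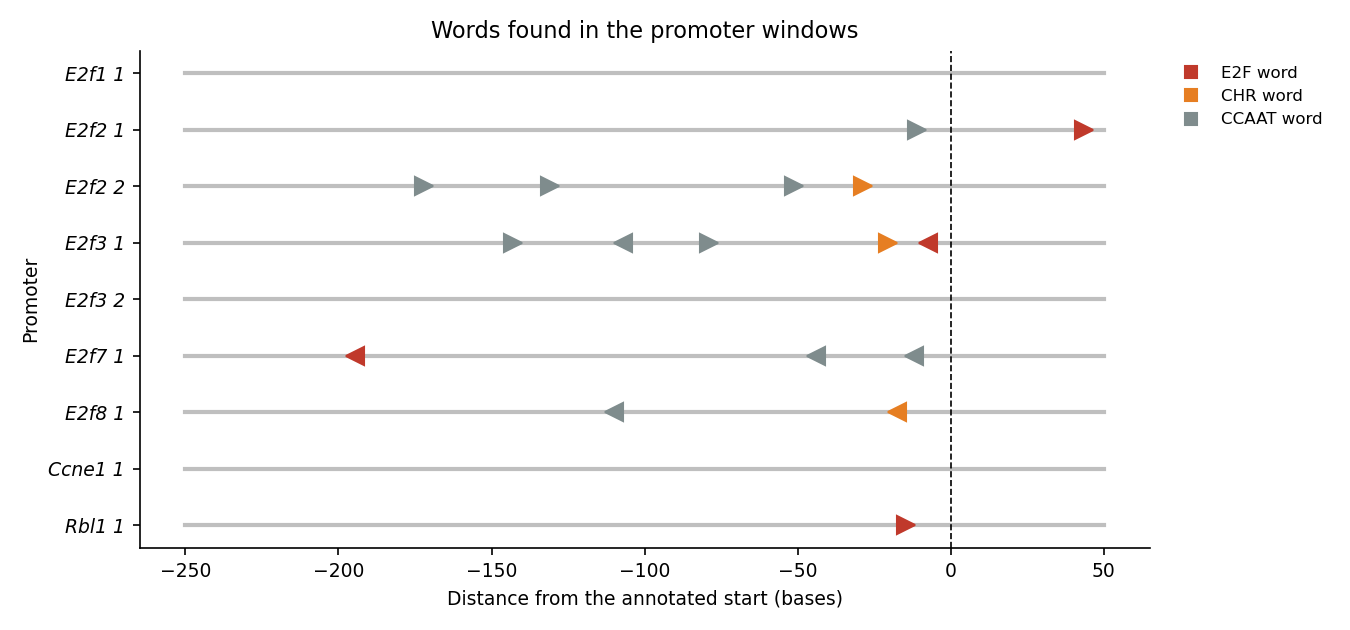
The 9 member promoter windows are drawn to scale as distance from the start site in bases, with the position of each word searched. E2F words are in 4 windows, CHR words in 3 and CCAAT words in 5. The E2f1 window and the second E2f2 window start inside coding sequence.

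Of the 14 member probes, 12 were tested, because every array of 1 or both groups read them well above background, and 11 of them passed on all 6 arrays. With Foxo3 siRNA 7 of the 12 were called higher and 2 lower by limma at a Benjamini-Hochberg adjusted p under 0.05 over 26991 probes. Of all tested probes 12.2% were called higher, 13.4% lower and 25.6% in either direction. Of the calls over all probes, 47.62% were higher, but 77.19% were higher after scaling to the median and 83.49% after scaling to the spike-in controls. The median fold change of all tested probes was −0.16 on the log2 scale and moved to 0.15 and 0.25 under those 2 scalings, so the direction of a small change depends on the scaling. Values of the 2 groups did not overlap for 10 of the 12 probes, 7 higher and 3 lower, against 49.5% of all tested probes (21.4% higher and 28% lower). Read by gene on the brightest tested probe, 6 genes rose (E2f1, E2f2, E2f4, E2f8, Ccne1 and Rbl1), against 13% of all genes read this way, and Rb1 fell, against 13.2% (26.2% in either direction).

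**Figure D2:**
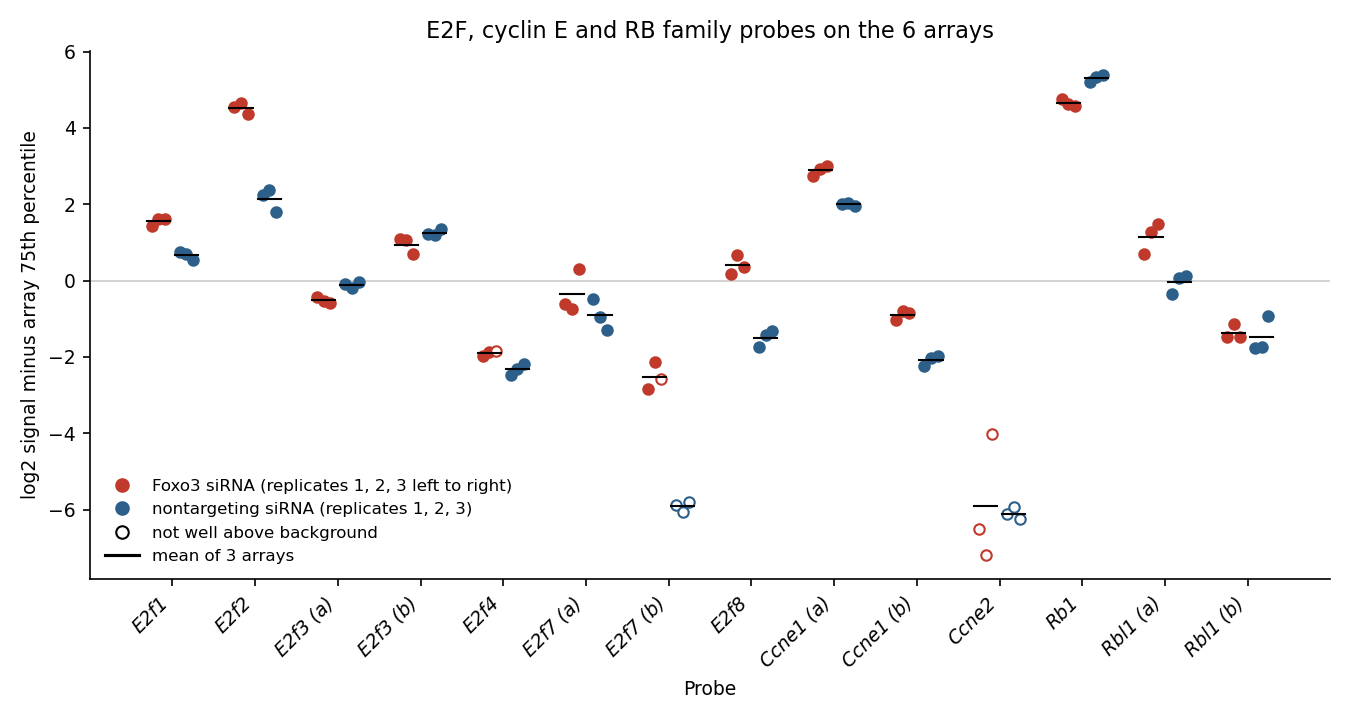
Scaled log2 signal of each member probe on the 3 Foxo3 siRNA and 3 nontargeting siRNA arrays, 1 point per array, with the group mean as a bar and open points where the probe was not well above background. E2f2 and E2f8 show the widest gaps between the groups among the tested probes, and Rb1 lies lower on all 3 Foxo3 siRNA arrays.

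Among the activators, E2f2 rose most. Its probe (mm9, chr4:135750562-135750621, plus strand) read 4.54, 4.64 and 4.36 on the Foxo3 siRNA arrays, against 2.24, 2.38 and 1.80 on the nontargeting arrays. The groups were far apart, with every Foxo3 siRNA array above every nontargeting array. The log2 fold change was 2.38 (SE 0.178, 95% interval 1.95 to 2.81, n = 3 arrays per group, limma adjusted p = 0.00101), a 5.20-fold rise and higher than 99.7% of all tested probes. E2f2 was called in all 19 alternative processings, which gave 2.21 to 2.79. With the slide row as a block the value was 2.41 (limma adjusted p = 0.0174). In the authors' deposited table, E2f2 had a log2 fold change of 2.38 and an adjusted p of 0.0168.

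E2f1, the activator best known for driving both S phase entry and cell death, rose less. Its probe (mm9, chr2:154385798-154385857, minus strand) read 1.42, 1.62 and 1.62 on the Foxo3 siRNA arrays, against 0.76, 0.69 and 0.54 on the nontargeting arrays. The groups did not overlap, and the log2 fold change was 0.89 (SE 0.12, 95% interval 0.61 to 1.18, limma adjusted p = 0.00468). With the slide row as a block it was 0.76 (limma adjusted p = 0.0518), and the call was also lost after spike-in scaling, without the filter on dim probes and in slide row 1 alone.

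E2f3, the third activator, did not rise on either of its probes. The probe that spans an intron (mm9, chr13:30005369-30008755) read −0.44, −0.53 and −0.60 on the Foxo3 siRNA arrays, against −0.09, −0.20 and −0.05 on the nontargeting arrays. It was lower on all 3 Foxo3 siRNA arrays (log2 fold change −0.41, SE 0.109, limma adjusted p = 0.0379), but the call was lost in 11 of 18 alternatives and the value was −0.10 after median scaling and 0 after spike-in scaling. The other probe (chr13:29998480-29998539) read 1.09, 1.06 and 0.69 against 1.21, 1.18 and 1.35, also without overlap, and gave −0.31 (SE 0.144, limma adjusted p = 0.152), which turned to 0.01 and 0.10 under those scalings. Without Foxo3 siRNA replicate 3 it was −0.18, and with the slide row as a block −0.16. The difference of the 2 E2f3 probes within an array changed by 0.10 between the groups (exact two-sided permutation p = 0.4).

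E2f4, the repressor that pairs with the pocket proteins in resting cells, was dim. Its probe (mm9, chr8:107829156-107829215, plus strand) read −1.99, −1.86 and −1.84 on the Foxo3 siRNA arrays, where replicate 3 was not well above background, against −2.47, −2.32 and −2.18 on the nontargeting arrays. The groups did not overlap, and the log2 fold change of 0.43 (SE 0.121, limma adjusted p = 0.0442) lay just inside the threshold. The call was lost in 12 of 18 alternatives, among them leaving out any 1 of the 6 arrays (0.36 to 0.50), normexp background correction (0.19) and the slide row as a block (0.34).

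E2f8 rose second most among the tested member probes. E2F8 and its relative E2F7 are known as repressors that shut down E2F targets late in S phase and that are themselves E2F targets. The E2f8 probe (mm9, chr7:56121860-56121919, minus strand) read 0.16, 0.68 and 0.36 on the Foxo3 siRNA arrays, against −1.75, −1.42 and −1.32 on the nontargeting arrays. No value of 1 group reached the other, and the log2 fold change was 1.89 (SE 0.183, limma adjusted p = 0.00194), a 3.72-fold rise and higher than 99.3% of all tested probes. The call was lost in slide row 1 alone (1.65, limma adjusted p = 0.0564) and kept in the other 18 alternatives, including the slide row as a block (limma adjusted p = 0.0259). In the authors' deposited table E2f8 had a log2 fold change of 1.65 and an adjusted p of 0.026, and E2f2 and E2f8 were the only members under 0.05 there.

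E2f7 was read by 2 probes. The first (mm9, chr10:110219255-110219314) read −0.62, −0.75 and 0.31 on the Foxo3 siRNA arrays, against −0.48, −0.95 and −1.30 on the nontargeting arrays. These ranges overlapped, the log2 fold change was 0.55 (SE 0.335, limma adjusted p = 0.237), and it passed the threshold after median scaling alone (0.87, limma adjusted p = 0.0334). It was 0.22 without Foxo3 siRNA replicate 3, 0.36 without nontargeting replicate 3 and 0.29 with the slide row as a block. The second probe (chr10:110224331-110224390) was not tested in the reported processing. The Foxo3 siRNA arrays passed background in 2 of 3 cases and the nontargeting arrays in 0 of 3. Without a filter on dim probes, or with Foxo3 siRNA replicate 3 left out, this probe was tested and was called higher by limma. In the latter case it passed the filter through the Foxo3 siRNA arrays alone, where it is high. Its intensities were 48.1, 116.2 and 66.1 against 5.07, 5.05 and 5.49, all nontargeting values being at the bottom of the scale. Set against the lowest well-above-background level of each nontargeting array, or the probe's own signal where higher, it was at least 2.96-fold higher with Foxo3 siRNA, and the authors' deposited table gives a log2 fold change of 1.96 with an adjusted p of 0.0791.

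Cyclin E1 rose on both of its probes. The brighter Ccne1 probe (mm9, chr7:38882937-38882960 in the array design) read 2.74, 2.92 and 2.99 on the Foxo3 siRNA arrays, against 2.01, 2.04 and 1.96 on the nontargeting arrays, a log2 fold change of 0.88 (SE 0.114, limma adjusted p = 0.00418). The other (chr7:38885574-38885633) read −1.03, −0.80 and −0.85 against −2.23, −2.04 and −1.99, a log2 fold change of 1.19 (SE 0.125, limma adjusted p = 0.00236). Neither probe overlapped between the groups. The call of the brighter probe was lost in 3 of 19 alternatives (spike-in scaling, no filter, slide row 1 alone), and that of the other in slide row 1 alone, while normexp background correction lowered the dimmer probe's value to 0.73. The Ccne2 probe (chr4:11131423-11131482) was well above background on 0 of 6 arrays, so no fold is given for cyclin E2.

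Of the RB family, Rb1 was called lower and Rbl1 higher on 1 of its 2 probes. Rb1, the retinoblastoma gene, was read by 10 spots of 1 probe on each array (mm9, chr14:73595408-73595467), which averaged 4.76, 4.62 and 4.58 on the Foxo3 siRNA arrays, against 5.21, 5.33 and 5.39 on the nontargeting arrays. The SD over these spots within an array was 0.0264 to 0.0422, which measures the repeat of a spot and not the spread between samples. All 3 Foxo3 siRNA arrays were lower. The log2 fold change was −0.66 (SE 0.113, limma adjusted p = 0.00994), so the level with nontargeting siRNA was 1.58-fold that with Foxo3 siRNA. The size depended on the scaling: it was −0.35 (limma adjusted p = 0.401) after median scaling and −0.25 (limma adjusted p = 0.894) after spike-in scaling. With the slide row as a block it was −0.55 (limma adjusted p = 0.0964), and without nontargeting replicate 2 it was −0.65 (limma adjusted p = 0.0555). The call was lost in 6 of 19 alternatives, among them also no filter (limma adjusted p = 0.125). None of the 10 Rb1 spots passed in the authors' deposited table, where they ranged from −0.70 to −0.56.

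Rbl1, the gene of p107, gave 2 answers. The probe on transcript variant 1 (mm9, chr2:156972143-156972202) read 0.69, 1.27 and 1.48 on the Foxo3 siRNA arrays, against −0.36, 0.08 and 0.13 on the nontargeting arrays, without overlap, a log2 fold change of 1.20 (SE 0.24, limma adjusted p = 0.0162). The call was lost in 7 of 19 alternatives. Among them were no filter (limma adjusted p = 0.127), the slide row as a block (0.74, limma adjusted p = 0.138) and slide row 1 alone (0.74). The others were leaving out Foxo3 siRNA replicate 2 (limma adjusted p = 0.055), Foxo3 siRNA replicate 3 (0.0507), nontargeting replicate 1 (0.0568) or nontargeting replicate 2 (0.0584). The probe on variant 2 (chr2:157000761-157000820) read −1.48, −1.14 and −1.48 against −1.77, −1.75 and −0.92, with overlap and a log2 fold change of 0.12 (SE 0.255, limma adjusted p = 0.734). The variant 1 signal over that of variant 2 within an array was 1.08 higher on the log2 scale with Foxo3 siRNA (exact two-sided permutation p = 0.1, the smallest that 3 arrays against 3 allow, and 0.15 adjusted over the 3 probe pairs, which were chosen after their values were seen). For Ccne1 the same difference of the brighter over the dimmer probe changed by −0.31 (exact permutation p = 0.1, adjusted p = 0.15).

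**Figure D3:**
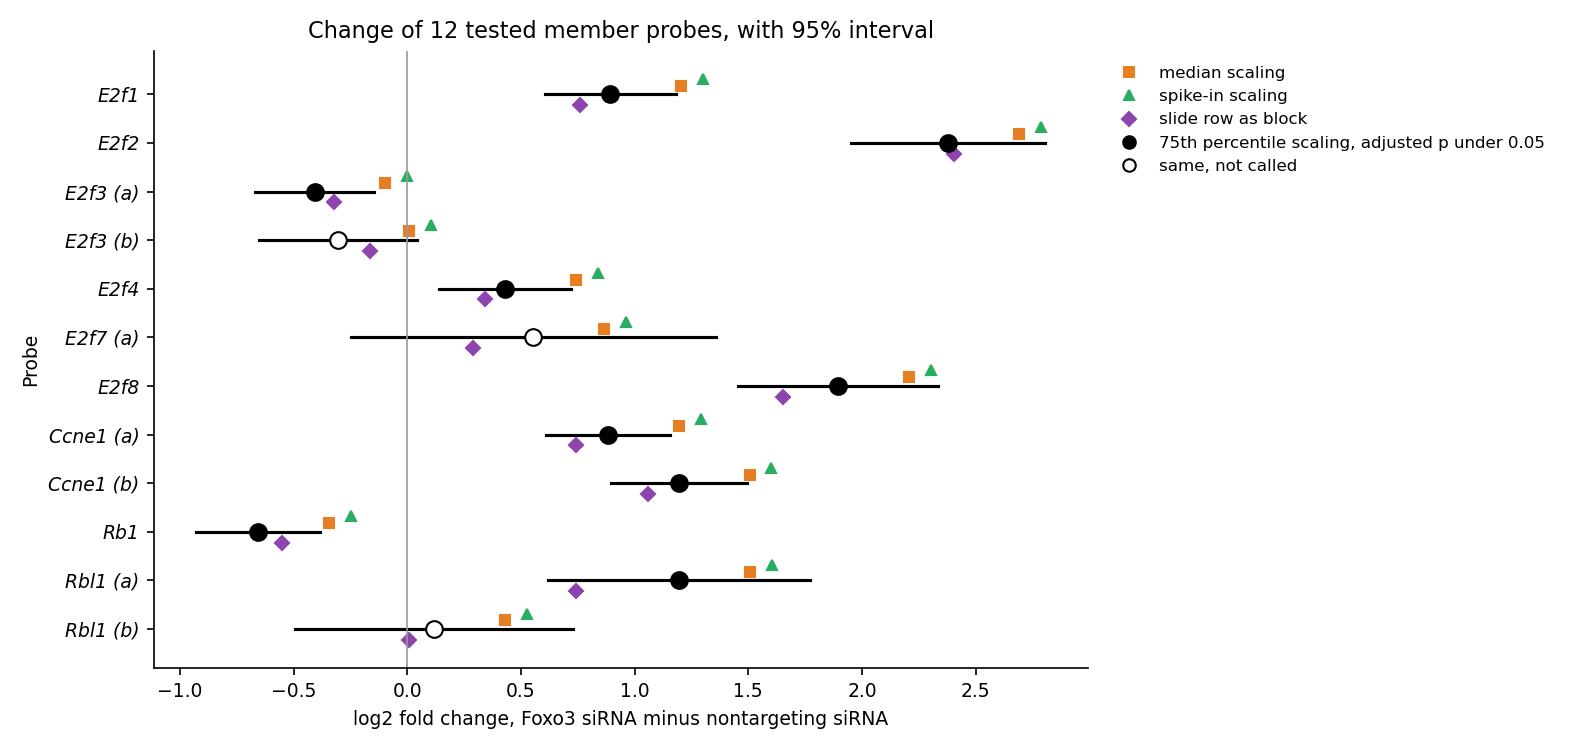
Log2 fold change of each tested member probe, Foxo3 siRNA minus nontargeting siRNA, with 95% intervals from the limma fit, 3 arrays per group; (a) and (b) mark the first and second probe described for E2f3, Ccne1, Rbl1 and E2f7. Squares, triangles and diamonds give the value after median scaling, after spike-in scaling and with the slide row as a block. E2f2 at 2.38 and E2f8 at 1.89 lie farthest to the right, and Rb1 at −0.66 farthest to the left.

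Ratios of members within an array do not depend on the scaling between arrays and show unequal change only. The activator E2f2 over the repressor E2f4 was 6.53, 6.50 and 6.20 on the Foxo3 siRNA arrays, against 4.70, 4.70 and 3.98 on the nontargeting arrays on the log2 scale, a difference of 1.95. Rbl1 (variant 1) over Rb1 was −4.07, −3.35 and −3.11 against −5.57, −5.25 and −5.26, a difference of 1.85. E2f8 over the tested E2f7 probe was 0.78, 1.43 and 0.05 against −1.27, −0.47 and −0.02, a difference of 1.34. In all 3 ratios every Foxo3 siRNA array was higher than every nontargeting array, for E2f8 over E2f7 by a narrow margin. The E2f7 probe that was not tested gives no such ratio. Its own rise of at least 2.96-fold is a lower bound, so a ratio on it would be smaller or reversed. In the authors' deposited table this E2f7 probe rose by 1.96 and E2f8 by 1.65 on the log2 scale, so E2f8 rose less there. That E2f7 value did not pass an adjusted p of 0.05. Each of the 3 ratios gave an exact two-sided permutation p of 0.1, the smallest this design allows, and 0.1 after adjustment over the 3.

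Of 13 genes for dimer partners, the DREAM complex and further RB or E2F family members, 12 were tested, 4 were called higher and 2 lower, and the median log2 fold change was 0.05, against 13% called higher, 13.2% lower and a median of −0.155 over all genes on their brightest tested probe. The number higher was 2 without nontargeting replicate 2, after spike-in scaling, without a filter and in slide row 1 alone, and the median was −0.07 without nontargeting replicate 1 and 0.36 and 0.46 under median and spike-in scaling. Mybl2, the B-MYB subunit that replaces the pocket proteins in proliferating cells, rose by 1.82 (SE 0.174, limma adjusted p = 0.00187), with a second probe at 1.81. Foxm1, the forkhead factor that then joins it, read −0.19, 0.15 and −0.18 against −1.66, −1.57 and −1.47 and rose by 1.49 (SE 0.136, limma adjusted p = 0.00161). The dimer partner Tfdp2 rose by 0.76 (limma adjusted p = 0.0133) and the repressor E2f6 by 0.81 (limma adjusted p = 0.0157), while Rbl2, the p130 gene, gave −0.23 (limma adjusted p = 0.307). The 2 lower genes, the DREAM core subunits Lin52 (−0.41) and Lin54 (−0.50), were not called after median or spike-in scaling or on leaving out any 1 array.

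Genes acting around the switch, above it or after it, moved both ways. Of 18 genes for G1 cyclins, their kinases and inhibitors, 12 were tested, 5 were called higher and 3 lower, with a median of 0.16, against the same 13%, 13.2% and −0.155 over all genes. The number higher was 3 without nontargeting replicate 2 and with the slide row as a block, and 2 after spike-in scaling, without a filter and in slide row 1 alone. The median was 0.47 and 0.56 under median and spike-in scaling and 0.30 with the row block. Ccna2, the cyclin that follows cyclin E on CDK2, read 4.34, 4.59 and 4.58 against 1.72, 2.08 and 1.79 and rose by 2.64 (SE 0.145, limma adjusted p = 0.000619). Cks1b, the kinase subunit that helps degrade p27, rose by 2.36 (limma adjusted p = 0.000491), and the INK4 inhibitor gene Cdkn2c by 0.78 (limma adjusted p = 0.00476). Cdkn1a, the p21 inhibitor of CDK2, read 5.51, 5.17 and 5.51 against 6.20, 6.20 and 6.25 and fell by 0.82 on the log2 scale (limma adjusted p = 0.0082), and its other probes gave −1.59 and −1.36. Cdkn1b, the p27 gene, gave −0.83 (limma adjusted p = 0.0155), and Fbxw7, a ubiquitin ligase subunit that marks cyclin E for degradation, −0.55 (limma adjusted p = 0.0227). A second probe gave −1.26 for Cdkn1b (limma adjusted p = 0.0103) and −0.875 for Fbxw7 (limma adjusted p = 0.021). In all 3 of Cdkn1a, Cdkn1b and Fbxw7 the brightest probe fell least. Under median or spike-in scaling 0 of these 3 lower genes were called by limma on the brightest probe, and 0 at an unadjusted p under 0.05, with Cdkn1a at −0.50 and −0.41.

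The known downstream genes were mostly higher. Of 32 E2F targets of the G1/S transition, 29 were tested, 18 were called higher and 1 lower, with a median of 0.74. Over all genes on their brightest tested probe 13% were called higher and 13.2% lower, with a median of −0.155. The number higher in the list was 12 after spike-in scaling and 10 without a filter. The list median was 1.049 after median scaling and 1.145 after spike-in scaling. The replicative helicase genes Mcm5 (2.21) and Mcm3 (1.68) and the thymidine kinase gene Tk1 (1.95) rose, with limma adjusted p of 0.000761, 0.00105 and 0.000782. Rrm2, the small subunit of ribonucleotide reductase, read 3.66, 4.41 and 4.23 against 1.55, 1.51 and 1.58 and rose by 2.55 (SE 0.201, limma adjusted p = 0.00113). The lower gene was Ezh2 (−0.48, limma adjusted p = 0.0211), which lost its call after median (−0.17) or spike-in scaling (−0.08). With the slide row as a block the number called higher was 10, and in slide row 1 alone it was 6.

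On the brightest probe, all 15 tested genes of a list of 18 G2/M genes repressed by DREAM were called higher. Their median was 2.46 and their range 1.20 to 3.85, against 13% called higher and a median of −0.155 over all genes. A dimmer Mad2l1 probe gave 0.14 (limma adjusted p = 0.813) and another 0.87 (limma adjusted p = 0.00968). The further probes of Birc5, Ccnb1 and Ube2c were also called higher. The spindle checkpoint kinase gene Bub1 read 0.28, 0.54 and 0.34 against −3.52, −3.40 and −3.48 and rose by 3.85 (SE 0.118, limma adjusted p = 0.000387). Birc5, the survivin gene, rose by 3.18, and the mitotic kinase genes Aurka and Plk1 by 2.63 and 2.49. Of 9 genes of nuclear condensation and enucleation 7 were tested and 0 were called by limma in either direction, with 1 higher (Kmt5a, 0.47) and 1 lower (Cit, −0.48) at an unadjusted p under 0.05. Over all genes 26.2% were called in either direction, and a count of 0 among 7 is not shown to differ from that share. Diaph1 gave −0.26, and the probes of Xpo7 gave 0.41 and −0.18. Several alternatives, among them normexp background correction, called 1 gene of this list in each direction.

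**Figure D4:**
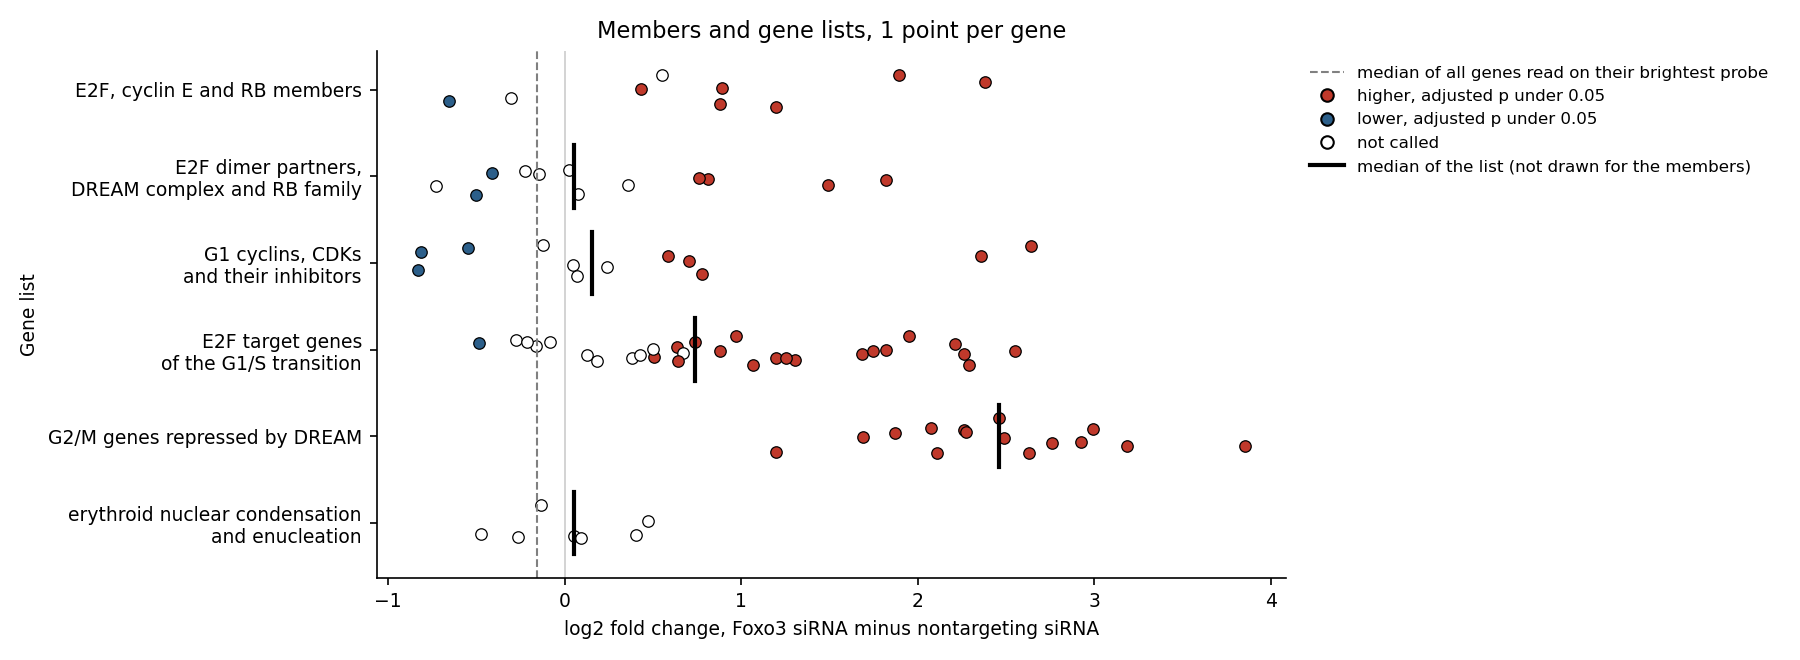
Log2 fold change, Foxo3 siRNA minus nontargeting siRNA, of each tested gene on its brightest tested probe, by list, 1 point per gene, with the list median as a bar and the median of all genes as a dashed line. All 15 G2/M genes lie right of 1, the G1/S targets spread from −0.48 to 2.55, and the enucleation genes lie between −0.48 and 0.47.

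The genes whose pattern over the 6 arrays lay nearest to that of E2f2 were sought among 11347 named genes by the root mean square difference of log2 values, each centred on its own mean. They were Prc1 (0.106), Mki67 (0.115), Cdc20 (0.12), Gys1 (0.155) and Hddc2 (0.155). Prc1, a midzone microtubule bundler, read 3.099, 3.07 and 3.02 against 0.65, 0.75 and 0.39, and Mki67, the Ki-67 proliferation marker, read 5.45, 5.58 and 5.43 against 3.28, 3.15 and 2.91. Gys1, the muscle glycogen synthase gene, read 3.64, 3.35 and 3.19 against 1.18, 1.12 and 0.89, with a fold change of 2.33 on the log2 scale. Among the members E2f8 was nearest to E2f2 (0.382, rank 110), followed by Rbl1 (0.708, rank 457), E2f1 (0.762, rank 599) and Ccne1 (0.774, rank 642), and Rb1 was the farthest (1.53, rank 9734). The measure holds the size of the group difference, since the 6 arrays are 3 and 3 of the same 2 groups.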

How the data were processed

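RNA from 3 Foxo3 siRNA and 3 nontargeting siRNA samples was hybridised to 1-colour Agilent mouse arrays. Per the file headers, each spot's intensity is the processed signal of Agilent Feature Extraction 10.7.3.1, already background-subtracted and detrended within an array; no normalization between arrays is recorded. The deposited series file adds the authors' log2 fold change and p-value per spot, which per the submitters' processing notes came from limma, and their normalization is not given in the sources used here.

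Control spots (3671 of 62976) were left out and outlier spots set to missing. Log2 intensities were scaled by subtracting their 75th percentile on that array, and spots of 1 probe were averaged. A probe was kept if 1 or both groups had it well above background on each of their 3 arrays (26991 of 55681). The groups were compared with limma 3.58.1 (lmFit and eBayes, two-sided, no covariate) in R 4.3.3 and adjusted by Benjamini-Hochberg over all kept probes, a check of which was run on simulated data. A gene in a list was read on its brightest kept probe. Ratios were tested by exact permutation. Positions of probes are those of the array design, build mm9, and promoters are from RefSeq (GRCm38.p6); the builds were not converted.

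The text names all members, up to 4 genes with the smallest adjusted p in each list, Foxo3, and the 5 genes nearest to E2f2, placeholder symbols passed over; Rbl2, Lin52, Lin54, Cdkn1b, Fbxw7 and Ezh2 were added after their values were seen. Of the lists first drawn up, 2 genes are not reported here and were left out of the lists' counts, medians and figure. The members and lists were chosen with earlier results of these data known. Alternatives were median, quantile and spike-in scaling, normexp background correction (offset 50), filters on all 6 arrays or none, the brightest probe only, outliers kept, array weights, trended robust eBayes, a replicate block, the slide row as a block or row 1 alone, and leaving out each array. The labels' replicate numbers were not taken to pair the samples, since the correlations of same-numbered deviations were 0.16, −0.31 and 0.11. Nothing in the labels says that replicates were separate cultures, so the p-values reflect just the spread among these 6 samples, which may be technical, and the number of arrays limits the precision.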

Additional observations from a re-analysis of the deposited data

How the results depend on the processing

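E2f2 was called in all 19 alternatives and E2f8 in 18 of 19. The count of all tested probes called by limma, 6900 as reported, was 1363 after spike-in scaling, 635 without a filter, 1892 with the slide row as a block, 753 in slide row 1 alone, and 2706 to 6023 on leaving out 1 array. Member probes called higher, 7 of 12 as reported, numbered 4 of 12 after spike-in scaling, 4 of 14 without a filter and 4 of 12 with the row block. They numbered 5 to 6 on leaving out 1 array, with 6 of 13 without Foxo3 siRNA replicate 3. The counts without a filter and without Foxo3 siRNA replicate 3 include the second E2f7 probe, which the reported processing did not test. Member probes called lower, 2 as reported, numbered 0 after median scaling and 0 after spike-in scaling (0 at an unadjusted p under 0.05 in both), 0 without a filter (2 unadjusted), 0 with the row block (1 unadjusted), 0 in row 1 alone (1 unadjusted), 1 with the brightest probe only and 0 to 2 on leaving out 1 array, with 0 without nontargeting replicate 2 (2 unadjusted). List genes called lower by limma, 6 as reported, numbered 0 after median scaling and 0 after spike-in scaling (0 unadjusted in both), 0 without a filter (6 unadjusted), 0 with the row block (4 unadjusted), 0 in row 1 alone (4 unadjusted) and 1 to 5 on leaving out 1 array. List genes called higher, 42 as reported, numbered 24 in row 1 alone. The second E2f3 probe changed sign to 0.006 after median scaling and 0.10 after spike-in scaling, and the Rbl1 variant 2 probe ranged from −0.028 to 0.397 on leaving out 1 array, below 0 without nontargeting replicate 1 or 2. With the replicate number as a block, 6964 probes were called, 7 member probes higher and 1 lower, the intron-spanning E2f3 probe moving to a limma adjusted p of 0.0586. Dim probes such as those of E2f4, E2f7 and Ccne2 limit what can be read, most of all on Foxo3 siRNA replicate 3. The causes of these changes were not tested.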
